A study of Medicago truncatula with 6 samples.

Results

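The strigolactone synthesis genes D27 (Medtr1g471050), CCD7 (Medtr7g045370) and CCD8 (Medtr3g109610) were followed in roots of *Medicago truncatula*. They were chosen by gene ID, as the core steps of the pathway, and all 3 were present among the 50443 genes of the deposited expression table. The table pairs these IDs with no gene names, so the names are those given with the selection. In the w5 group, *M. truncatula* A17 seedlings grew on agar plates towards *Gongronella* sp. w5 (w5), a free-living soil fungus of the Mucoromycotina, and roots in contact with its mycelia were taken after 16 days. On these plates w5 was placed on a medium with glucose, beside the plant medium, which held no glucose. In the control group, seedlings of the same line grew alone on the plant medium without w5, and their label gives no day. Whether the control plates also held the glucose medium is not stated. If they did not, w5 and that medium cannot be told apart in any comparison below. There were 3 replicates per group, which the study's methods call biological, each sequenced as 1 library. The number of plants in a library is not stated.

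Strigolactones are carotenoid-derived plant hormones. They restrain shoot branching inside the plant, and roots also release them into the soil, where they stimulate the hyphae of arbuscular mycorrhizal fungi and, in many species, are made in larger amounts when phosphate is scarce. Synthesis starts in plastids. D27, described first in rice, is an isomerase that turns all-trans-beta-carotene into its cis form. CCD7 and CCD8 are carotenoid cleavage dioxygenases that act in turn on that product, and CCD8 releases carlactone, from which the active hormones are made by later enzymes.

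The 3 genes were weakly expressed, and none passed at an adjusted p under 0.05 in any fit that held it. Whether their changes differ from one another was not tested. D27 was close to undetected in both groups, CCD7 was low and had a higher mean level in the w5 libraries with overlapping groups, and CCD8 was the most abundant and nearly equal in the groups. The libraries held between 6547753 and 6822646 counts with w5, and between 6983430 and 7539956 counts without it. For a gene with no count in a library, a limit of 3 counts was taken, a one-sided bound, which is between 0.440 and 0.458 per 1e+06 counts with w5 and between 0.398 and 0.430 without it. Intervals of counts are exact Poisson 95% intervals and cover counting error only. Since whole roots were sequenced, fewer cells of a type and less RNA per cell cannot be told apart.

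The first enzyme of the pathway, D27, had 2, 1 and 0 counts in the w5 libraries, against 2, 3 and 1 counts in the control libraries. The groups overlapped, and no library was above the limit of 3 counts. The deposited FPKM of D27, which are counts per kilobase of gene and per 1e+06 counts of the library, were 0.149, 0.0714 and 0 with w5, against 0.129, 0.206 and 0.0697 without. Summed over libraries, D27 had 3 counts with w5 (interval 0.619 to 8.77) and 6 counts without (interval 2.20 to 13.1). No fold change is given for D27, since every library was at or under that limit and a fitted value would rest on too few counts. A difference was not detectable at this depth. Among the genes with a count in a library, D27 stood above at most 7.59% by FPKM.

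CCD7, the first cleavage enzyme, had 8, 19 and 17 counts in the w5 libraries, against 2, 5 and 10 counts in the control libraries. W5 replicates 2 and 3 were above every control library, while w5 replicate 1 lay below control replicate 3, so the groups overlapped. The counting intervals of those 2 libraries overlapped widely, at 3.45 to 15.8 counts for w5 replicate 1 and 4.80 to 18.4 counts for control replicate 3. In deposited FPKM, CCD7 had 0.598, 1.36 and 1.25 with w5, against 0.130, 0.345 and 0.701 without. The means were 1.07 ± 0.412 FPKM with w5 and 0.392 ± 0.288 FPKM without (SD, n = 3 each).

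The higher mean of CCD7 did not pass after adjustment in any fit over the libraries. The main fit left CCD7 out, because edgeR's expression filter asks for 1.45 counts per 1e+06 in 3 libraries and CCD7 reached this in 2. With the filter at 1 CPM (counts per 1e+06) in at least 3 libraries, CCD7 was kept, through the 3 w5 libraries and control replicate 3, so the group where it is high carried it past the filter. It then had a log2 fold change of 1.47, w5 over control (standard error 0.66, 95% interval -0.03 to 2.96). In edgeR's quasi-likelihood test CCD7 had an unadjusted p of 0.0536, which Benjamini-Hochberg adjustment over 17835 genes brought to an adjusted p of 0.466. Of these genes 0.0112% had an adjusted p under 0.05. With no filter, edgeR gave CCD7 a log2 fold change of 1.45 at an unadjusted p of 0.0546, with an adjusted p of 0.571. DESeq2 gave a log2 fold change of 1.47 and an adjusted p of 0.567. An exact permutation test of log2 CPM, two-sided and chosen after seeing that the filter removed the gene, gave p = 0.2 for CCD7, where 0.1 is the smallest p that 3 libraries against 3 allow.

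Pooling the reads of a group leaves the spread between replicates aside. Summed over libraries, CCD7 had 44 counts of 20042937 with w5, against 17 of 21609924 without, a ratio of 2.79 per count sequenced (exact interval 1.56 to 5.21). This ratio compares the pooled libraries and not the conditions. Within the groups the variance of the CCD7 counts was 2.34 times their mean with w5 and 2.88 times without, where counting error alone gives about 1. With 1 library left out at a time, edgeR's own filter kept CCD7, and its log2 fold changes lay between 1.04, without control replicate 1, and 2.17, without control replicate 3. The unadjusted p fell under 0.05 in 2 of these 6 fits, at 0.0201 without control replicate 3 and 0.0379 without w5 replicate 1. The adjusted p of edgeR lay between 0.320 and 0.767 over the 6.

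**Figure D1:**
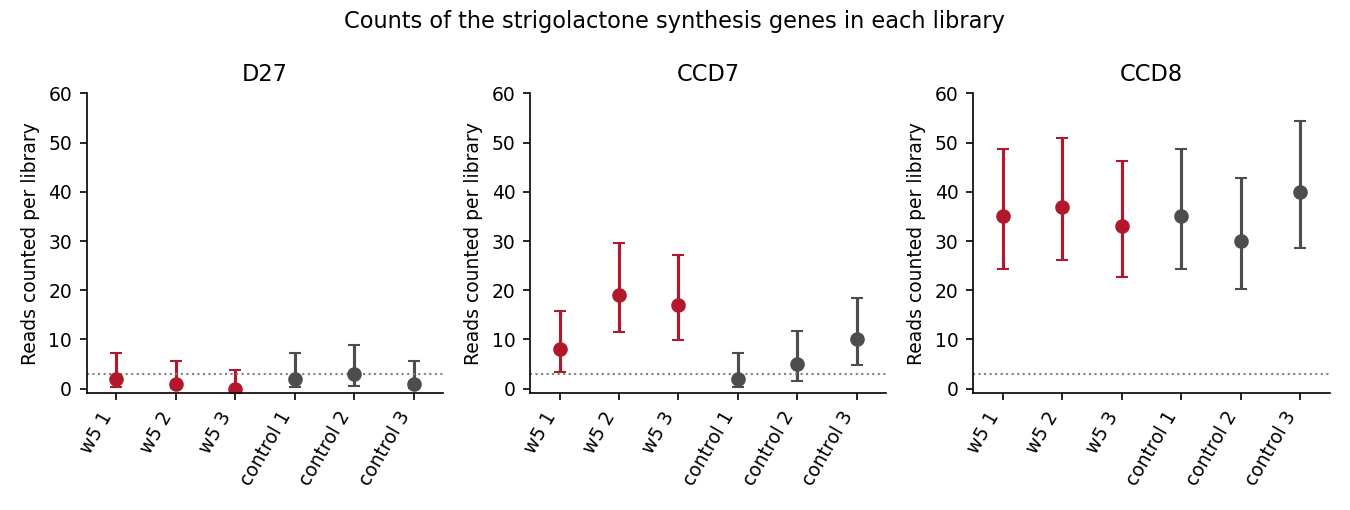
Reads counted in each library for D27, CCD7 and CCD8, with w5 libraries in red and control libraries in grey. Bars are exact Poisson 95% intervals of counting error, and the dotted line marks 3 counts. D27 stays at or under 3 counts, CCD7 spans 8 to 19 counts with w5 and 2 to 10 without, and CCD8 spans 33 to 37 with w5 and 30 to 40 without.

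CCD8, which completes the core of the pathway, had 35, 37 and 33 counts in the w5 libraries, against 35, 30 and 40 counts in the control libraries. Control libraries were both the lowest and the highest, and the w5 libraries lay between them. In deposited FPKM, CCD8 had 2.39, 2.43 and 2.21 with w5, against 2.08, 1.90 and 2.57 without. The means were 2.35 ± 0.115 FPKM with w5 and 2.18 ± 0.346 FPKM without (SD, n = 3 each). Over the 6 libraries the variance of the CCD8 counts was 0.331 times their mean, below the value of about 1 that counting error alone gives.

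CCD8 was the 1 member of the 3 that edgeR's expression filter kept, and it did not pass. The quasi-likelihood test of edgeR gave CCD8 a log2 fold change of 0.12, w5 over control, with a standard error of 0.30. The unadjusted p was 0.707, and Benjamini-Hochberg adjustment gave an adjusted p of 0.944 in edgeR. The 95% interval was -0.56 to 0.80, so that on the fold scale values from 0.676 to 1.74 stay within it. Without control replicate 3 the interval on the fold scale was 0.696 to 2.08. Neither interval shows that the level was the same. For comparison, 4.77% of the 16905 genes tested changed by over 1 on the log2 scale in either direction at an unadjusted p under 0.05, and 0.0177% had an adjusted p under 0.05. Of the tested genes, 29.4% had a smaller absolute log2 fold change than CCD8. The exact permutation test of log2 CPM gave p = 0.4 for CCD8, two-sided.

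**Figure D2:**
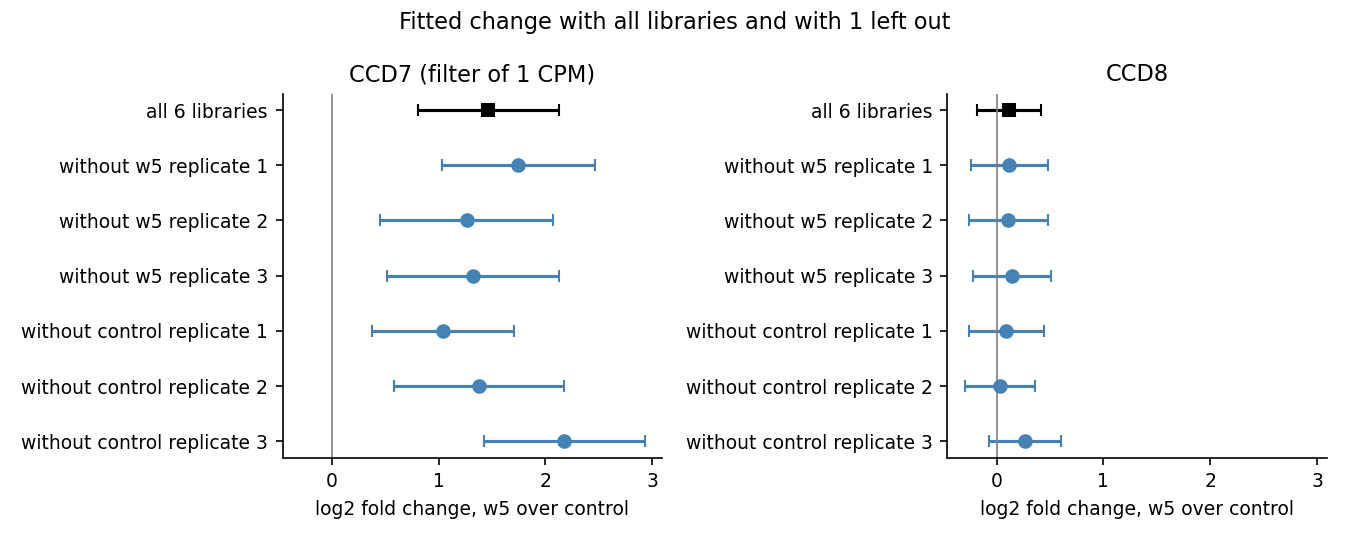
Log2 fold change, w5 over control, of CCD7 (left, fitted with the 1 CPM filter) and CCD8 (right), with all 6 libraries (square) and with each library left out (circles). Bars are standard errors. CCD7 lies between 1.04 and 2.17 when 1 library is left out, and CCD8 between 0.03 and 0.27.

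Per gene length, the levels followed the order CCD8, CCD7, D27 in the 3 w5 libraries and in control replicates 2 and 3. In control replicate 1, CCD7 and D27 were nearly equal, at 0.130 and 0.129 FPKM. In the w5 group D27, at 0.0734 ± 0.0744 FPKM (SD, n = 3), was below CCD7 beyond their spread, and so was CCD7 below CCD8. The counting intervals of D27 (0.242 to 7.22) and CCD7 (3.45 to 15.8) still overlapped in w5 replicate 1. In the control group CCD8 was again above both others in every library, but the means of CCD7 and D27 did not differ beyond their spread. D27 averaged 0.135 ± 0.0684 FPKM without w5 (SD, n = 3), and in control replicate 1 both D27 and CCD7 had 2 counts. Even CCD8 was a gene of low level, since it stood above between 34.5% and 36.1% of the genes with a count in the w5 libraries and between 32.2% and 36.6% in the control libraries.

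**Figure D3:**
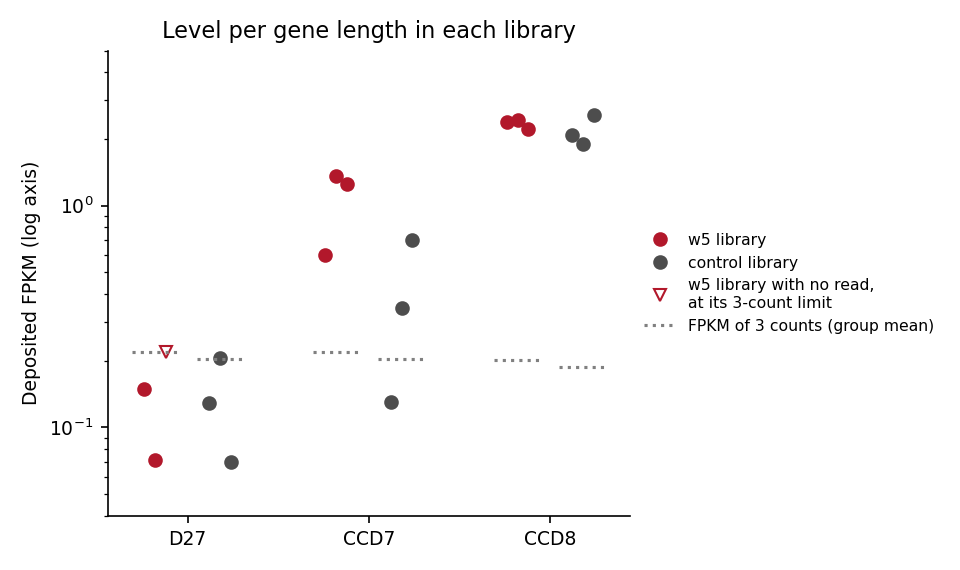
Deposited FPKM of D27, CCD7 and CCD8 in each library on a log axis, w5 in red on the left and control in grey on the right of each gene. The triangle is the w5 library without a D27 read, drawn at its limit of 3 counts (0.219 FPKM), and dotted lines mark the FPKM of 3 counts. CCD8 lies between 1.90 and 2.57 FPKM in all libraries, while CCD7 lies between 0.598 and 1.36 with w5 and between 0.130 and 0.701 without.

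The balance between the cleavage enzymes can be read within a library, where the library total and any scaling factor cancel. CCD7 was at 25.0%, 56.1% and 56.3% of the FPKM of CCD8 in the w5 libraries, against 6.25%, 18.2% and 27.3% in the control libraries. W5 replicate 1 was again within the range of the controls, and the other w5 libraries were above it. These ratios were not tested. They rest on the small counts of CCD7, as CCD8 itself varied little.

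For each member, the genes with the most similar course over the 6 libraries were sought by the root mean square difference of centred log2 CPM. They were picked as the closest of the 16905 genes tested, so the closeness itself is fixed by the choice. The nearest to CCD8 was Medtr7g083200, at a distance of 0.00653, with 402, 428 and 378 counts with w5 and 406, 351 and 457 without. Medtr3g106220 (0.0312) and Medtr0044s0180 (0.0417) followed, and the median distance from CCD8 over all genes tested was 0.338. The nearest to CCD7 was Medtr8g005265, with 8, 17 and 19 counts with w5 against 3, 5 and 12 without, at a distance of 0.153 where the median is 0.909. This gene also did not pass, as edgeR gave it a log2 fold change of 1.22 at an adjusted p of 0.548. Medtr1g012710 (0.176) and Medtr4g109530 (0.187) came next for CCD7, and their log2 fold changes of 0.90 and 0.96 had adjusted p-values of 0.516 and 0.327 from edgeR. The 0 to 3 counts of D27 give no usable course. By the same rule its nearest genes were Medtr1g055435 (0.0664), Medtr4g124910 (0.0895) and Medtr5g017450 (0.121), against a median of 0.512. No source used here annotates these genes.

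Around the 3 members, 5 genes with annotations from carotenoid metabolism were compared, and none passed at an adjusted p under 0.05 in edgeR's quasi-likelihood test. The 5 are the carotenoid-related entries of the study's own list of changed genes, which was made from these libraries, so their passing the limits below is favoured by the choice and is no independent evidence of a direction. The limits applied here were an unadjusted p under 0.05 together with a log2 fold change above 1 or below -1. With w5, 4 were lower and 1 was higher at these limits, and the median log2 fold change over the 5 was -1.17, against -0.01 over all genes tested. Of all genes tested, 2.73% were lower and 2.03% higher at these limits. At an adjusted p under 0.05 this test called 0 of the 5 in edgeR, while all 5 had an unadjusted p under 0.05, as had 11.1% of all genes tested. DESeq2 called 3 of the 5 and 3.09% of the genes it adjusted, and edgeR's exact test called 3 of the 5 and 3.18% of all genes tested. In all 5 the libraries of the groups did not overlap, which held for 9.04% of the genes tested with w5 lower and for 7.02% with w5 higher. Without control replicate 1, 2 of the 5 were past the limits, and without w5 replicate 3 it was 3.

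Medtr5g090780 is annotated as a squalene/phytoene synthase, a family name that covers both phytoene synthase, which makes the first carotenoid, and squalene synthase of sterol synthesis. It had 24, 21 and 23 counts in the w5 libraries, against 82, 54 and 33 counts in the control libraries. Every w5 library was below every control library, and the control libraries differed far more among themselves than the w5 libraries did. In edgeR its log2 fold change was -1.17 ± 0.37 (standard error) at an adjusted p of 0.249, and -0.83 without control replicate 1, which was no longer past the limits.

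Medtr2g040060 is annotated as lycopene epsilon cyclase, which directs lycopene away from beta-carotene, the substrate of D27, towards lutein. It had 128, 94 and 83 counts with w5, against 300, 264 and 156 counts without. The groups did not overlap. EdgeR gave a log2 fold change of -1.11 ± 0.27 (standard error) at an adjusted p of 0.141, and DESeq2 an adjusted p of 0.0205. It was -0.94 without control replicate 1 and -0.99 without w5 replicate 3, in both cases short of the limits.

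Medtr7g116630, a violaxanthin de-epoxidase of the xanthophyll cycle in chloroplasts, had 87, 94 and 73 counts with w5, against 298, 241 and 176 counts without. The groups were well apart. It had the lowest p of the 5, at -1.36 ± 0.22 (log2 fold change and standard error) with an adjusted p of 0.0721 in edgeR, and DESeq2 called it at an adjusted p of 1.21e-04.

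Medtr3g080840 is annotated as a putative D27 family protein. It had 12, 10 and 12 counts in the w5 libraries, against 76, 42 and 23 counts in the control libraries. The w5 libraries were nearly equal and all lower. Its log2 fold change of -1.90 was the largest of the 5 in size, with a standard error of 0.47. Its adjusted p was 0.144 in edgeR and 0.0312 in DESeq2, and the log2 fold change was -1.40 without control replicate 1. This family gene was more abundant than D27 itself in every library, with 1.59 ± 0.189 FPKM with w5 and 6.01 ± 3.20 FPKM without (SD, n = 3 each). Whether its product acts in strigolactone synthesis was not tested.

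The gene that was higher, Medtr3g110195, is annotated as a retinal pigment epithelial membrane protein, a name taken from the animal branch of the carotenoid oxygenase family to which CCD7 and CCD8 also belong. It had 39, 33 and 27 counts with w5, against 18, 3 and 21 counts without. All w5 libraries were above all control libraries, and control replicate 2 was far below the other controls. EdgeR put it at 1.35 ± 0.58 (log2 fold change and standard error). The unadjusted p of 0.0464 became an adjusted p of 0.435 in edgeR. Leaving out any library other than control replicate 3 put it outside the limits, with 0.89 without control replicate 2. Its level of 2.32 ± 0.449 FPKM with w5 and 0.908 ± 0.632 FPKM without (SD, n = 3 each) was close to that of CCD8 in the w5 libraries.

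**Figure D4:**
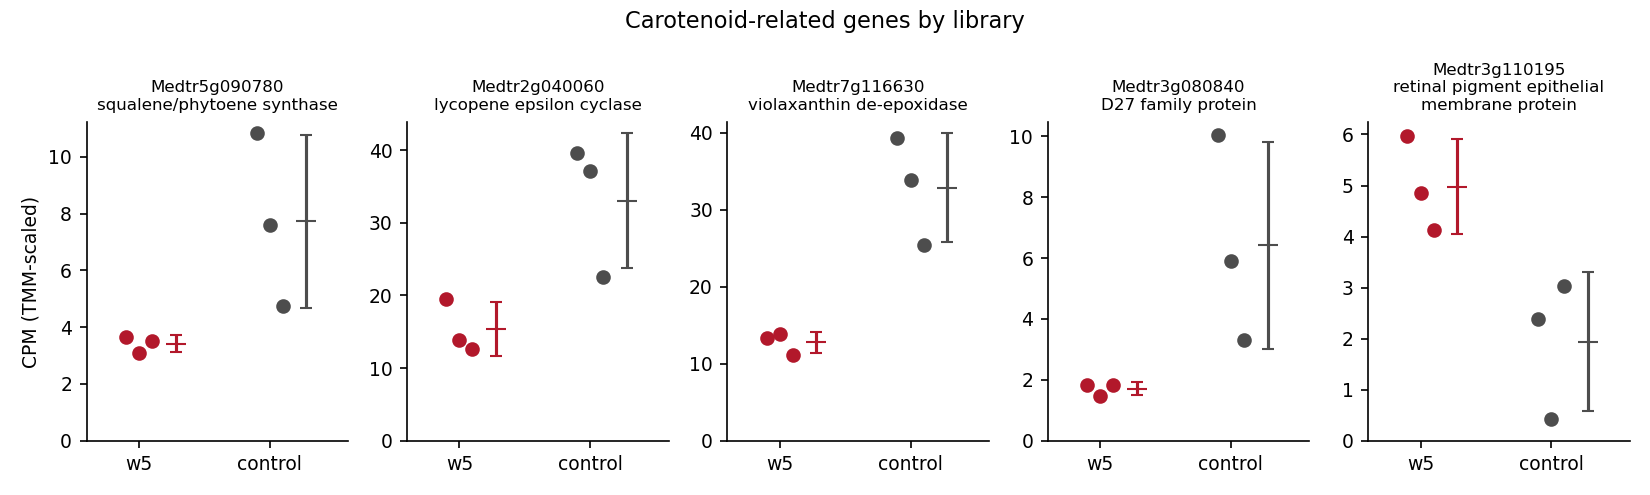
CPM after TMM scaling of the 5 carotenoid-related genes, one panel each with its own axis from 0, with w5 libraries in red on the left and control libraries in grey on the right. Points are libraries and the bars beside them are means with SD (n = 3 each). The first 4 genes are lower in every w5 library and the last, Medtr3g110195, is higher in every w5 library.

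Genes of green tissue were also lower with w5, and both lists come from the study's list of changed genes. Of 39 genes that the study's list describes as photosystem, chlorophyll A/B-binding or light-harvesting proteins, 37 were kept by the filter. All 37 were lower with w5 at the same limits, against 2.73% of all genes tested, a direction that the choice of the list favours. At an adjusted p under 0.05, edgeR's quasi-likelihood test called 1 of the 37, and 0.0177% of all genes tested. DESeq2 called 33 of the 39, and 3.09% of the genes it adjusted. Their summed level was 2502, 2463 and 3275 CPM in the w5 libraries, against 7779, 9104 and 4868 CPM in the control libraries, and none of the 39 was at 0 throughout. The summed level of the 4 lower carotenoid genes was 38.4, 32.2 and 29.2 CPM with w5, against 99.8, 84.4 and 56.0 CPM without. Among the controls both sums were lowest in replicate 3, but the green sum was highest in replicate 2 and the carotenoid sum in replicate 1. Among the w5 libraries replicate 3 had the highest green sum and the lowest carotenoid sum. The part of green tissue in the change of these 4 genes was not tested. The root label could not be checked against root markers, since no source used here annotates one.

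In many species phosphate status affects strigolactone synthesis, and 1 gene of phosphate uptake was therefore set beside the members. Medtr7g096880, annotated as a high affinity inorganic phosphate transporter, had 55, 72 and 40 counts in the w5 libraries, against 6, 16 and 15 counts in the control libraries. The groups did not overlap, as held for 7.02% of the genes tested with w5 higher. The log2 fold change was 2.27 ± 0.45 (standard error), with an adjusted p of 0.0944 in edgeR and 9.67e-04 in DESeq2. DESeq2 called 3.09% of the genes it adjusted. Without w5 replicate 2 the adjusted p of edgeR was 0.282. This transporter too comes from the study's list, so its change is favoured by the choice. As 1 gene picked from that list, it cannot stand for the phosphate status of the roots or for other phosphate transporters, which were not examined here. Any link between this transporter and the 3 members was not tested.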

How the data were processed

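Total RNA of roots was made into stranded paired-end libraries and sequenced by the authors. The authors deposited raw read counts per gene, and beside them FPKM values. The deposited FPKM equal the counts over gene length and library total in all 131099 values above 0 (largest relative difference 5.11e-15). They were used for levels between genes. Bowtie 0.12.2 and a build named mm8 stand in the submitters' processing notes with no role, although the methods name a *M. truncatula* reference. How reads were counted, with or without strand, and on which annotation is not stated in any source used here, so reads of close family members may be misassigned, and no coordinates are given.

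Counts were analysed in R 4.3.3. Genes were filtered with filterByExpr, scaled by TMM and compared with the quasi-likelihood test of edgeR 4.0.16 (robust, condition as the only term). Benjamini-Hochberg adjustment ran over the genes that the filter kept. CPM are counts per 1e+06 scaled counts of the tested genes, and log2 CPM used a prior count of 2. The alternatives were DESeq2 1.42.0, limma 3.58.1 (voom, and on log2(FPKM + 0.1) and log2(FPKM + 1), where low genes are understated), edgeR's exact test, other scaling factors and filters, a replicate block, and each library left out. The members and lists were chosen with earlier results of these data known. Genes named are the members, the carotenoid-related entries of the study's list, 1 phosphate transporter of that list, and the 3 genes nearest to each member. The reference table matched none of the listed IDs and held no sequence, so no further members were added.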

Additional observations from a re-analysis of the deposited data

How the results depend on the processing

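CCD8 stayed short of an adjusted p of 0.05, with the same sign, in all 17 alternatives, with log2 fold changes between 0.03 and 0.27. CCD7 did so in all 18 fits other than the one reported, between 1.04 and 2.17, at unadjusted p-values between 0.0201 and 0.161 and adjusted p-values between 0.320 and 0.777. Those fits that join the 1 CPM filter with another change were chosen after seeing the data. The difference of mean CPM, w5 minus control, was 1.40 for CCD7 (1.12 to 1.90 over the alternatives) and -0.13 for D27 (-0.20 to -0.05). D27 entered 2 fits, with unadjusted p-values of 0.555 (no filter) and 0.642 (DESeq2). Of all genes, the main fit called 3 at an adjusted p under 0.05, against 195 with no filter, 540 with DESeq2, 538 with edgeR's exact test, and 1 to 103 with 1 library left out. Of the 5 carotenoid-related genes it called 0 at that limit, against 1 with no filter, 3 with DESeq2, 3 with edgeR's exact test and 0 to 1 with 1 library left out. At an unadjusted p under 0.05 and a log2 fold change above 1 or below -1, 5 passed, against 3 with limma on log2(FPKM + 1) and 2 to 5 with 1 library left out. The cause of these shifts was not tested.

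Whether the replicate numbers pair the libraries is not stated. The deviations of same-numbered libraries from their group means had correlations of 0.23, -0.05 and -0.03. Libraries with different numbers had correlations between -0.23 and 0.24. With 3 libraries per group, these values cannot settle whether the libraries are paired. With the replicate block, CCD8 had a log2 fold change of 0.13 and CCD7 (1 CPM filter) 1.56. EdgeR's adjusted p-values were 0.962 for CCD8 and 0.362 for CCD7, and the unadjusted p of CCD7 was 0.0322. The block raised the called genes to 176 and those of the 5 to 1. Depth limits D27 in every library, at no more than 3 counts, and CCD7 in control replicate 1, at 2 counts.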
